A study of Mus musculus with 18 samples.

Results

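Microglia are the resident macrophages of the brain, and 40 genes that mark their resting or their activated state were followed through the RNA of the mouse hippocampus after kainic acid. The genes were taken by name, and all 40 were present among the 55291 gene symbols of each of the 18 libraries. By role, 10 are homeostatic genes of resting microglia, 10 are myeloid genes that resting and activated cells share, 5 are immune receptors and their signalling adaptors, 11 are activated or disease-associated genes and 4 are chemokines. All 40 appear below, some with the value of every sample or a range and others with a log2 fold change alone.

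RNA came from the right hippocampus of male C57BL/6J mice that were 6 weeks old at surgery, with 3 to 4 mice pooled per sample and 3 samples per group. All 3 groups, the controls included, had received an AAV in right CA3 that carried EGFP-Rpl10a, a GFP-tagged ribosomal protein. The KA group was injected in the right dentate gyrus with kainic acid (KA, a glutamate receptor agonist used to model mesial temporal lobe epilepsy) 2 weeks after the AAV and was collected 14 days later. The AAV control group had the AAV alone and was collected 2 weeks after it, so its mice were younger than the KA mice and had 1 surgery fewer, which cannot be told apart from KA in that comparison. The PBS group had PBS in place of KA, and the day of its collection is not given in the sources used here. Each sample gave an input library of the whole homogenate and an IP library, in which ribosomes were pulled down with an anti-GFP antibody. The tag is driven by the astrocytic GfaABC1D promoter, so microglia were not meant to carry it, although the labels name every sample, input included, as astrocytes. Run 1 held KA and AAV control samples #1 and #2, run 2 held their samples #3 and run 3 held all PBS samples, so for PBS the run and the group cannot be told apart.

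In the healthy brain, microglia are kept in a resting state by signals that include CSF1 receptor ligands, TGF-beta and the neuronal chemokine fractalkine, and they read their surroundings through P2Y12 and related receptors. After injury or degeneration they can enter a disease-associated state, in which TREM2 signals through the adaptor TYROBP, homeostatic genes are lowered and genes for lysosomal, lipid-handling and secreted proteins are raised. Hippocampal sclerosis with neuronal loss and gliosis is a known setting for such activation.

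Totals ranged from 7991681 to 16032180 counts per library. Marker genes of astrocytes were higher in IP than in input in all 3 groups (5 of 5 passed the test in each). Of all genes tested, 13.3% were higher in IP in AAV control, 14.8% in PBS and 8.11% in KA. All 5 markers that define microglia here (Cx3cr1, P2ry12, Tmem119, Csf1r and Siglech) were detected in every library, with input levels of 2.59 to 7.71 FPKM in the controls. Levels are given in FPKM, fragments scaled by gene length and library total, and in the order of samples #1, #2 and #3. In bulk RNA, fewer cells of a type and less RNA per cell cannot be told apart. A gene was tested if it exceeded 1 FPKM in every compared library, and was called a DEG at a change of 1 or more on the log2 scale, in either direction, with an adjusted p under 0.05 (edgeR quasi-likelihood test, Benjamini-Hochberg adjusted over all genes tested). Members below that filter were taken from a wider fit of genes with a mean of at least 10 counts, which some of them passed through their KA libraries alone.

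The promoters of 4 members on which the results below turn are shown first. P2ry12, a purinergic receptor of resting microglia, had the smallest rise in input among the member DEGs, and Cst7, which encodes cystatin F, an inhibitor of lysosomal proteases, had the largest. Gpnmb, a glycoprotein of phagocytic cells, was higher in IP than in input. Fcgr2b, the inhibitory Fc receptor for immunoglobulin G, was alike in both kinds of library in the KA group. Each line gives the 250 bases before the RefSeq gene start (GRCm38.p6), read 5′ to 3′ on the gene's strand, at chr3:59262986-59263235 on the minus strand, chr2:150570165-150570414 on the plus strand, chr6:49036268-49036517 on the plus strand and chr1:170976072-170976321 on the minus strand. Capitals mark the letters AGGAAGT or GAGGAA on either strand, the core to which ETS factors such as PU.1, the myeloid regulator encoded by Spi1, can bind.
P2ry12: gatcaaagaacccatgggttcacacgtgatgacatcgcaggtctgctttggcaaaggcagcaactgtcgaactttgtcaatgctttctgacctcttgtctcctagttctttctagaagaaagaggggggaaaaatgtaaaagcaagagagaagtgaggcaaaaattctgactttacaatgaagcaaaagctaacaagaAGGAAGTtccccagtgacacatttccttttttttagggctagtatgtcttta
Cst7: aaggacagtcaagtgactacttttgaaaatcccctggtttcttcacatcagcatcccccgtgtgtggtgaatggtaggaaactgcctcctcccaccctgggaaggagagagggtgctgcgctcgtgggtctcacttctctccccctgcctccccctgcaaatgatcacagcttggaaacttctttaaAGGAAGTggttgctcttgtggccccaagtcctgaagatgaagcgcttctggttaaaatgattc
Gpnmb: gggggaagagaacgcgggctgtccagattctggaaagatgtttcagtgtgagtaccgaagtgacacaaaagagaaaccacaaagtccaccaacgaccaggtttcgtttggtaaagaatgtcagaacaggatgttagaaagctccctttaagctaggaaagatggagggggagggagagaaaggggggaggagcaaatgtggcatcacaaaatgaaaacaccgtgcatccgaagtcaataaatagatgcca
Fcgr2b: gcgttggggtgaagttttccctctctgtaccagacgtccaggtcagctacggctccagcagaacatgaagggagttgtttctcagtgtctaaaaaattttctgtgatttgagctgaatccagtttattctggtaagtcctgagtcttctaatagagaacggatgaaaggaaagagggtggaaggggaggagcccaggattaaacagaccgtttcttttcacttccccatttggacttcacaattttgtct

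P2ry12 and Cst7 each held 1 match in this window, and Gpnmb and Fcgr2b held none. Promoters were found for 31 of the 40 members. GAGGAA occurred in 16 of them (51.6%) and in 25.9% of all 27025 promoters of that length, and AGGAAGT in 9 (29.0%) and in 8.80%. Both motifs were searched on both strands, and they overlap where GAGGAA is followed by GT. By role, GAGGAA was present in 7 of the 9 shared myeloid promoters but in 1 of the 6 homeostatic ones (Fcrls), while AGGAAGT was present in 3 homeostatic promoters (Fcrls, P2ry12 and Sall1). Promoters of Cd52, Selplg, Gpr34, Lpl, Tyrobp, Ccl4, Cd14, Tmem119 and Csf1r were not analysed here. A match is a description of letters, not of a bound site.

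In the input of the KA group, nearly every microglia gene was higher than in either control. Of the 27 members tested against AAV control, 25 were upregulated DEGs and 0 were downregulated, where 2.52% of all 10809 genes tested were upregulated. Against PBS, 28 of 29 were upregulated, with a background of 4.26%. In the wider fit 38 of 40 rose against AAV control (background 4.69%) and 38 of 39 against PBS (background 7.99%). Itgax, Clec7a, Ccl3, Ccl4 and Cst7 had 6 to 24 counts summed over the 3 AAV control input libraries and entered that fit through their KA libraries. Their rise was fixed in part by that entry, so the wider counts give no separate support. In 39 of the 40 members all 3 KA libraries lay above all 3 AAV control libraries and above all 3 PBS libraries, which was so for 14.8% and 20.8% of all genes of the wider fit. The exception was Lpl. Both comparisons use the same KA libraries, so the second is not an independent repeat of the first. Leaving out KA input #1 lowered the count against AAV control from 25 to 16: P2ry12, Tmem119, Sall1, Cd53, Cd68, Tyrobp, Fcgr3, Axl and Ccl12 then missed the threshold. Over all genes the upregulated count fell from 272 to 131. Within run 1, where the count rests on 2 libraries per group, 27 were upregulated, as were 462 of all 11489 genes. In the wider fit the median log2 fold change against AAV control was 1.73 for the homeostatic and 2.91 for the shared myeloid members. It was 3.37 for the receptor, 3.47 for the activated and 4.39 for the chemokine members, and -0.03 for all genes. Among members above the FPKM filter it was, in that order, 1.65 (9 tested), 3.01 (6), 3.33 (4), 2.29 (6) and 3.89 (2). There the activated members lay below the shared myeloid and receptor members, so the order of the roles depended on the filter.

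**Figure D1:**
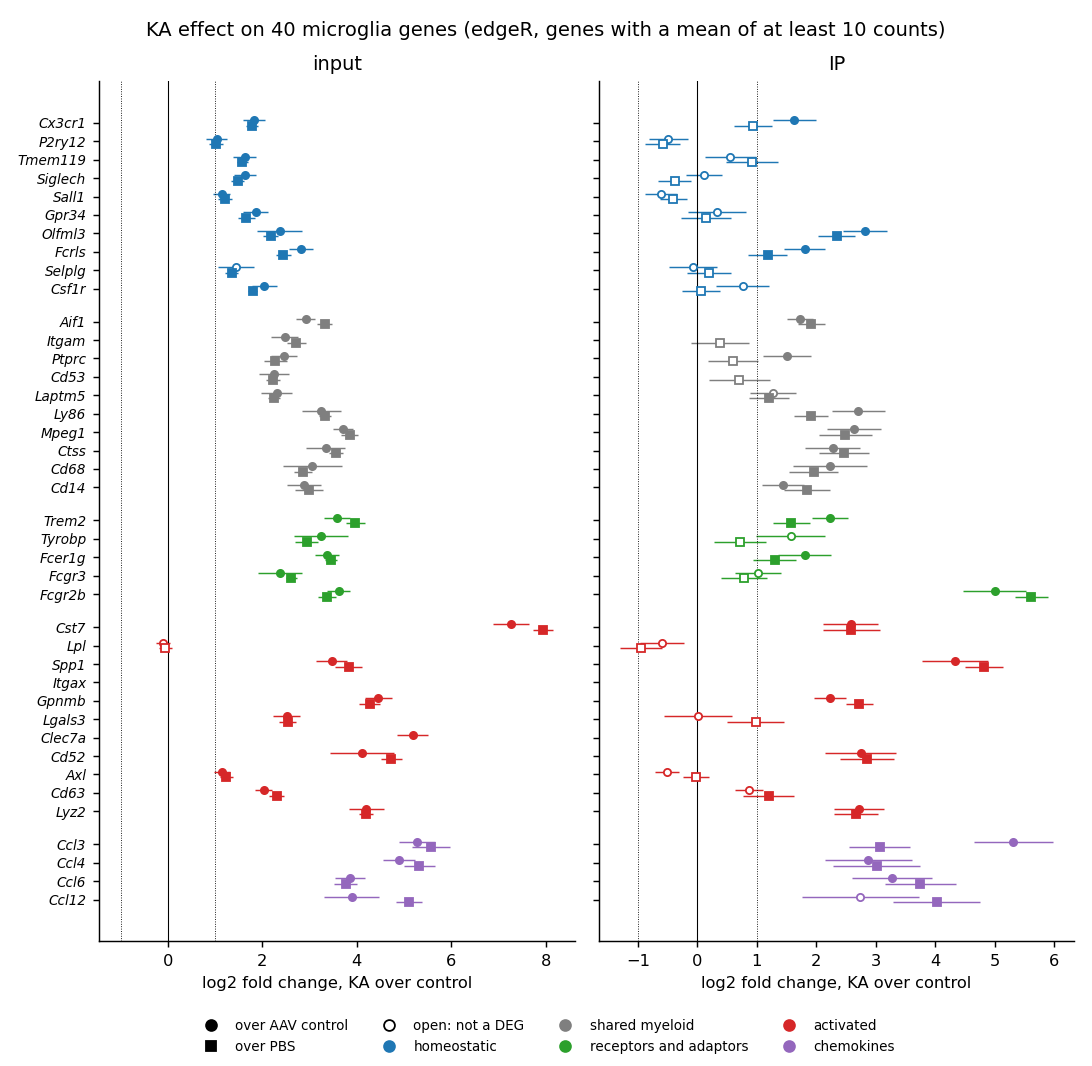
Log2 fold change (x axis) of the KA group over AAV control (circles) and over PBS (squares) for each member (y axis, ordered by role and coloured by it) in input (left) and IP (right), from the fit of genes with a mean of at least 10 counts. Bars are standard errors, n = 3 per group, open symbols did not pass the DEG thresholds, dotted lines mark a log2 fold change of 1 in either direction, and Itgax and all Clec7a points but that over AAV control in input are left out because their controls had few or no counts. In input all members but Lpl lie to the right of 0, while in IP most homeostatic members lie near 0.

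Among the homeostatic genes, P2ry12 lies at chr3:59216272-59262871 (minus strand, GRCm38). Its input level was 3.88, 4.15 and 5.56 FPKM in AAV control, 4.81, 4.05 and 4.87 in PBS and 10.3, 8.53 and 9.71 in KA. The KA samples were about level with each other and all above the controls, and PBS and AAV control overlapped. The log2 fold change was 1.05 ± 0.22 (SE) over AAV control (adjusted p = 0.0357, edgeR) and 1.05 ± 0.15 over PBS (adjusted p = 0.000687, edgeR). The AAV control call was lost when any 1 KA library, AAV control #1 or AAV control #2 was left out (adjusted p = 0.0896 to 0.176, edgeR). Over PBS the fold change fell under the threshold without KA #3 (0.98) and without PBS #2 (0.97). An exon of Med12l on the opposite strand overlaps P2ry12, and whether reads were counted by strand is not given in the sources used here.

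Cx3cr1, the fractalkine receptor, had 5.56, 4.93 and 7.71 FPKM in AAV control, 6.32, 5.84 and 6.66 in PBS and 24.8, 18.8 and 22.7 in KA. Tmem119, a membrane protein used to tell microglia from other macrophages, had 5.84, 3.48 and 6.52 FPKM in AAV control, 4.99, 5.10 and 6.33 in PBS and 16.3, 18.6 and 15.3 in KA. Neither gene had a KA sample near the controls. They rose by 1.85 ± 0.24 (adjusted p = 0.00521) and 1.65 ± 0.25 (adjusted p = 0.01) on the log2 scale over AAV control (edgeR), and by 1.81 ± 0.13 and 1.60 ± 0.12 over PBS. The Tmem119 call over AAV control was lost without KA #1 or KA #2 (adjusted p = 0.0556 and 0.0525, edgeR).

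The homeostatic gene with the largest rise was Fcrls, an Fc receptor-like protein, with 5.15, 5.34 and 7.19 FPKM in AAV control, 6.78, 7.05 and 9.22 in PBS and 55.1, 35.4 and 38.0 in KA. KA #1 stood above the other KA samples, and all 3 were far above the controls (log2 fold change 2.84 ± 0.24 over AAV control, adjusted p = 0.000977, and 2.47 ± 0.16 over PBS, edgeR). Csf1r, the receptor for CSF1 and IL-34, rose by 2.07 ± 0.26, the orphan receptor Gpr34 by 1.88 ± 0.25 and the lectin Siglech by 1.65 ± 0.22 over AAV control. Sall1, a transcription factor of microglial identity, rose least after P2ry12 (1.15 ± 0.18), a call lost without KA #1 or AAV control #1 (adjusted p = 0.0809 and 0.0599, edgeR). Olfml3, a secreted matrix protein, rose by 2.37 ± 0.48 in the wider fit, a call lost without AAV control #2. Selplg, the P-selectin ligand, reached 10.5, 8.70 and 10.1 FPKM in KA against 2.40, 2.18 and 5.73 in AAV control, where it did not pass (1.46 ± 0.39, adjusted p = 0.0838), and 2.91, 3.85 and 4.51 in PBS, where it did (1.38 ± 0.14, adjusted p = 7.82e-05). With the replicate number as a block, Selplg passed against AAV control too (1.60, adjusted p = 0.00565, edgeR).

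The shared myeloid genes rose further. Ctss, a lysosomal cysteine protease and the most abundant of them, had 46.7, 37.9 and 98.9 FPKM in AAV control, 47.1, 57.5 and 55.7 in PBS and 768, 635 and 543 in KA. Aif1, which encodes the microglial stain Iba1, had 15.9, 13.1 and 15.5 FPKM in AAV control, 11.3, 11.0 and 10.8 in PBS and 140, 120 and 83.7 in KA. The KA samples differed among themselves by less than the gap to the controls in both genes. Ctss rose by 3.37 ± 0.41 (adjusted p = 0.00452) and Aif1 by 2.93 ± 0.20 (adjusted p = 0.00064) over AAV control (edgeR).

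AAV control #3, the only AAV control of run 2, stood apart for several genes of this group. Cd68, a lysosomal membrane protein of phagocytes, had 2.29, 1.83 and 11.6 FPKM in AAV control, 4.67, 6.73 and 8.06 in PBS and 49.2, 38.2 and 56.0 in KA. Sample #3 thus set the spread of the AAV control group, while the KA samples remained above it. The rise over AAV control was 3.09 ± 0.65 (adjusted p = 0.0375), and 4.61 (adjusted p = 3.5e-05) without AAV control #3 (edgeR). When any 1 of the other AAV control or KA libraries was left out the Cd68 call over AAV control was lost, and it passed over PBS at 2.89 ± 0.20.

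Of the other shared myeloid genes, Ly86, a partner of a Toll-like receptor homologue, rose by 3.28 ± 0.42, the lysosomal Laptm5 by 2.33 ± 0.33 and the tetraspanin Cd53 by 2.27 ± 0.32 over AAV control. The pore-forming Mpeg1 (3.71 ± 0.22), the lipopolysaccharide co-receptor Cd14 (2.89 ± 0.36), the integrin Itgam (2.48 ± 0.29) and the phosphatase CD45 gene Ptprc (2.46 ± 0.28) passed in the wider fit. Ptprc was the lowest of these genes, at 0.0858 to 0.157 FPKM in AAV control and 0.671 to 0.792 FPKM in KA.

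Among the receptors and adaptors, Trem2, the lipid-sensing receptor of the disease-associated state, had 3.24, 3.35 and 4.44 FPKM in AAV control, 2.60, 3.04 and 2.74 in PBS and 59.9, 45.1 and 31.4 in KA. Its adaptor Tyrobp had 17.8, 17.0 and 62.3 FPKM in AAV control, 39.2, 47.2 and 38.0 in PBS and 312, 219 and 438 in KA. KA #1 was the highest Trem2 sample and KA #3 the highest Tyrobp sample, and AAV control #3 was above the other Tyrobp controls. Trem2 rose by 3.60 ± 0.27 (adjusted p = 0.00064) and Tyrobp by 3.28 ± 0.59 (adjusted p = 0.0218) over AAV control (edgeR), and over PBS by 4.00 ± 0.20 and 2.96 ± 0.26. Fcer1g, the common Fc receptor gamma chain, rose by 3.39 ± 0.25 and the activating Fc receptor Fcgr3 by 2.40 ± 0.48 over AAV control. Leaving out KA #1, AAV control #1 or AAV control #2 ended the call over AAV control for Tyrobp (also KA #3) and for Fcgr3 (also KA #2 and #3), with adjusted p of 0.0556 to 0.0944 and 0.0615 to 0.145 (edgeR).

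Fcgr2b was low in the controls, with 0.497, 0.326 and 0.535 FPKM in AAV control and 0.447, 0.465 and 0.713 in PBS, and reached 6.87, 5.22 and 5.12 FPKM in KA. The 3 KA samples were close together and clear of the controls (log2 fold change 3.62 ± 0.25 over AAV control, adjusted p = 0.000179, and 3.37 ± 0.18 over PBS in the wider fit, edgeR). An exon of Gm38204 on the opposite strand overlaps Fcgr2b.

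**Figure D2:**
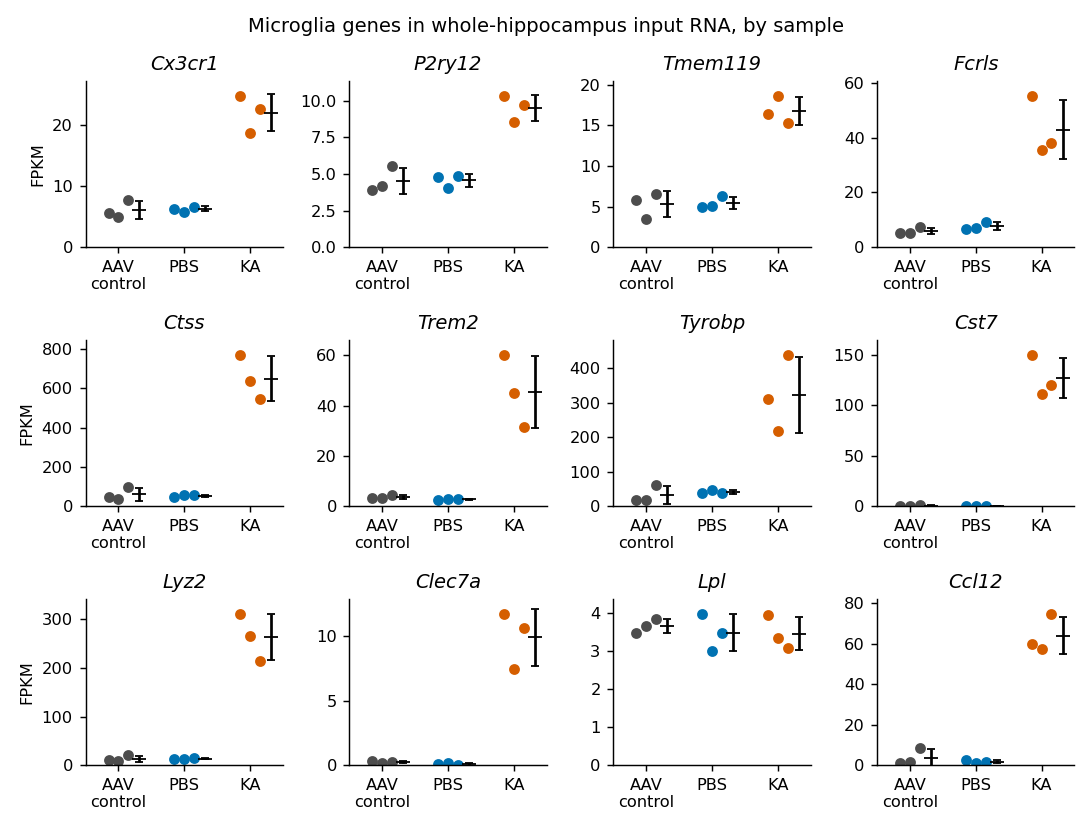
Input FPKM (y axis, linear and starting at 0) of 12 members in the 3 samples of each group (x axis). Points are samples #1 to #3 from left to right, and the bar beside them is the mean with its standard deviation (n = 3). Cst7 goes from 0.254 to 1.29 FPKM in AAV control to 111 to 150 FPKM in KA, P2ry12 from 3.88 to 5.56 FPKM to 8.53 to 10.3 FPKM, and Lpl stays between 3.01 and 3.97 FPKM in all groups.

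The activated genes spanned the widest range of changes. Cst7 had 0.254, 0.637 and 1.29 FPKM in AAV control, 0.606, 0.377 and 0.499 in PBS and 150, 111 and 120 in KA. The KA samples lay within a narrow band, and the controls were near the limit of detection, at 2 to 16 counts per AAV control library. Its log2 fold change was 7.27 ± 0.38 over AAV control (adjusted p = 0.000102) and 7.94 ± 0.21 over PBS (adjusted p = 8.98e-10) in the wider fit (edgeR), the largest fitted values among the members drawn in the plot of fold changes.

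Lyz2, lysozyme of myeloid cells, had 11.6, 8.44 and 20.9 FPKM in AAV control, 13.1, 12.8 and 16.0 in PBS and 310, 264 and 215 in KA. It rose by 4.22 ± 0.38 (adjusted p = 0.00114) over AAV control and by 4.22 ± 0.14 over PBS (edgeR), the most among members that passed the FPKM filter against AAV control. Lyz2 has a near-identical copy, Lyz1, so reads may have been split between both genes or lost. Spp1, the secreted phosphoprotein osteopontin, had 6.91, 4.45 and 7.19 FPKM in AAV control and 102, 64.6 and 44.8 in KA, with KA #1 well above KA #3. It rose by 3.48 ± 0.33 over AAV control and by 3.85 ± 0.31 over PBS. An exon of Gm42793 on the same strand overlaps Spp1.

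Gpnmb had 0.135, 0.177 and 0.293 FPKM in AAV control, 0.183, 0.157 and 0.377 in PBS and 4.53, 4.93 and 4.73 in KA. The KA samples were close together and far above both controls. It rose by 4.45 ± 0.29 over AAV control and by 4.28 ± 0.22 over PBS in the wider fit. Clec7a, the beta-glucan receptor dectin-1, had 0.332, 0.159 and 0.301 FPKM in AAV control, 0.0755, 0.211 and 0 in PBS and 11.6, 7.44 and 10.6 in KA. Itgax, which encodes the integrin CD11c, was the rarest member: it was at 0 counts in all 3 PBS input libraries, at 3, 0 and 3 counts in AAV control and at 0.253, 0.284 and 0.613 FPKM in KA, at least 6.33-fold above a floor of 3 counts per PBS library.

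Cd52, a surface glycopeptide of leukocytes, had 0.738, 1.32 and 8.04 FPKM in AAV control, 3.10, 1.57 and 2.57 in PBS and 69.1, 55.2 and 71.6 in KA, with AAV control #3 again above the other controls. It rose by 4.76 ± 0.22 over PBS (adjusted p = 2.09e-07, edgeR), and by 4.11 ± 0.68 over AAV control in the wider fit. An exon of Crybg2 on the opposite strand overlaps Cd52. The galectin gene Lgals3 rose by 2.54 ± 0.29, the tetraspanin Cd63 by 2.05 ± 0.17 and the receptor tyrosine kinase Axl, which binds GAS6 and protein S, by 1.16 ± 0.17 over AAV control.

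Lpl, the lipoprotein lipase that is a marker of the disease-associated state, was the member without a change in rank. It had 3.49, 3.66 and 3.85 FPKM in AAV control, 3.97, 3.01 and 3.48 in PBS and 3.95, 3.36 and 3.09 in KA. All groups overlapped, and the log2 fold change was -0.09 ± 0.14 over AAV control (adjusted p = 0.815) and -0.03 ± 0.14 over PBS (adjusted p = 0.901, edgeR).

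The 4 chemokines were near or below 2 FPKM in most control libraries. Ccl12, a ligand of CCR2, had 1.17, 1.56 and 8.73 FPKM in AAV control, 2.59, 1.04 and 1.83 in PBS and 60.1, 57.5 and 74.5 in KA. Ccl3, a ligand of CCR1, had 0.654, 0.684 and 0.830 FPKM in AAV control, 0.909, 0.607 and 0.257 in PBS and 44.5, 24.0 and 21.1 in KA. Every KA sample was above every control for both genes, and AAV control #3 was the highest Ccl12 control. Over AAV control Ccl12 rose by 3.91 ± 0.60 (adjusted p = 0.0111) and Ccl6 by 3.87 ± 0.32 (adjusted p = 0.000977, edgeR), and Ccl3 (5.28 ± 0.38) and Ccl4 (4.90 ± 0.34) passed in the wider fit.

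No member separated the 2 controls in this test. Between PBS and AAV control input 0 of 27 members were DEGs (edgeR), with a background of 0%, and 0 were called with DESeq2 or with limma voom. At an unadjusted p under 0.05, 0 members were higher and 1 was lower, where 901 of all 10924 genes tested had such a p. Without AAV control #3, Cd68 (1.73) and Tyrobp (1.34) were called higher in PBS on the log2 scale. That fit called 207 of all 11164 genes higher and 158 lower in PBS, so the background of 0% rested on this library. In IP 0 of 11 members differed (background 0%), and 0 had an unadjusted p under 0.05, where 1153 of all 10667 genes did. Without AAV control IP #3 still 0 members were called, while 366 of all 10951 genes were higher and 180 lower in PBS.

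The balance of activated and homeostatic genes differed between KA and the controls. The summed FPKM of the 11 activated genes divided by that of the 10 homeostatic genes was 2.39 to 3.21 in AAV control input, 1.88 to 2.30 in PBS and 5.08 to 6.17 in KA. Cd63 made up most of the activated sum in the controls. Without Lpl, Spp1, Axl and Cd63, which other brain cells also express, the quotient was 0.489 ± 0.147 in AAV control, 0.439 ± 0.0374 in PBS and 3.15 ± 0.186 in KA (SD, n = 3). Lpl, Axl and Cd63 rose less in KA than the summed shared myeloid genes, and the contrast with the controls was larger without these 4 genes. Sall1, Lgals3 and Gpnmb, which were also higher in IP than in input of AAV control, were kept. The KA samples did not overlap the controls in either form. These sums were not tested, as the lists were chosen with results known.

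Each member was also set against the summed shared myeloid genes of its library, a sum that itself went from a mean of 104 FPKM in AAV control to 967 in KA and of which Ctss made up 53.8% to 67.8%. A gene that rose less than this sum is lower in KA on this scale, as 96.8% of all genes of the wider fit were against both controls, and 0.224% were higher. P2ry12 had a mean of 4.72 FPKM per 100 FPKM of summed shared myeloid genes in AAV control, 4.93 in PBS and 0.997 in KA, where the 3 samples ran from 0.907 to 1.17. Tmem119 had 5.40 in AAV control, 5.84 in PBS and 1.76 in KA, and Cx3cr1 had 6.22, 6.74 and 2.31. On this scale 8 of the 10 homeostatic members lay below both controls in all KA samples, and Olfml3 and Fcrls lay below PBS but overlapped AAV control, a share no higher than that of all genes. Of the shared myeloid genes themselves Ptprc, Cd53 and Laptm5 lay below both controls and Ctss above both. Cst7 moved the other way, from 0.676 in AAV control and 0.538 in PBS to 13.2 in KA, and Lyz2 from 13.1 and 14.9 to 27.1. Of the activated genes Cst7, Gpnmb, Clec7a, Cd52 and Lyz2 lay above both controls and Lpl, Lgals3, Axl and Cd63 below both, so the activated genes were found on both sides. Spp1 overlapped both controls, and Itgax lay above PBS only. Of the chemokines Ccl3 and Ccl4 lay above both controls. Among the receptors Trem2, Tyrobp, Fcer1g and Fcgr2b overlapped at least 1 control, and Fcgr3 lay below both.

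**Figure D3:**
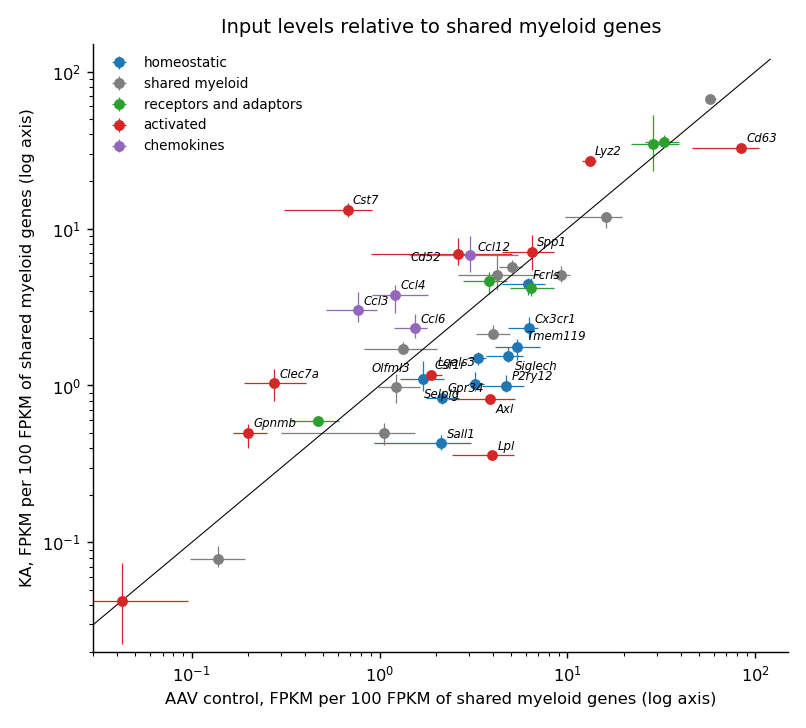
Input level of each member per 100 FPKM of the 10 shared myeloid genes in AAV control (x axis) and KA (y axis), both log axes, as means of 3 samples with bars from the lowest to the highest sample and colours for the role. Homeostatic members lie below the line of equality, as P2ry12 does at 4.72 against 0.997, while Cst7 lies furthest above it at 0.676 against 13.2.

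Markers of other immune cells were low in these libraries, other than S100a9, S100a8 and Pf4, which in KA input were at the level of the lower members. In input the summed 7 markers of border macrophages were 3.39 to 4.88 FPKM in AAV control, 2.96 to 5.09 in PBS and 7.56 to 10.5 in KA, most of it from the platelet factor gene Pf4 (4.84 FPKM in KA) and the reductase gene Cbr2 (1.45). Mrc1, Cd163, Lyve1 and F13a1 of the same list, named after their values were seen, had means of 0.153 to 0.377 FPKM in KA. The 5 monocyte markers summed to 0.797 to 1.48 FPKM in AAV control, 1.11 to 1.17 in PBS and 2.33 to 2.60 in KA, with Fn1 at 1.09, Ly6c2 at 0.678 and Ccr2 at 0.0913 FPKM in KA. The 5 neutrophil markers overlapped between groups (5.32 to 15.8, 4.79 to 17.6 and 12 to 34.6 FPKM), with S100a9 (11.2 FPKM in KA) and S100a8 (5.26) highest and Ly6g at 0 to 0.104. The 5 T cell markers, Cd3g and Cd3e among them, summed to 0.161 to 0.473 FPKM in AAV control, 0.200 to 0.345 in PBS and 0.782 to 1.19 in KA. Of these 22 markers 10 entered the wider fit, none of them a T cell marker. It called 1 higher over AAV control (background 4.69%), the macrophage gene Ms4a7 (2.82), and 3 over PBS (background 7.99%), Ms4a7 (2.79), Cbr2 (1.69) and the monocyte gene Ly6c2 (2.31). Of 5 endothelial markers (Cldn5, Flt1) it called 0 over either control, and of 5 fibroblast markers (Dcn, Pdgfra) 0 over AAV control and 2 over PBS, the collagen genes Col1a2 (1.09) and, just inside the threshold, Col1a1. These sums moved with KA in the direction of the members, other than the neutrophil one, and their part in the member results was not tested.

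Genes that feed or carry microglial signals were read from a list of partners. Of 9 ligands, Csf1, Pros1 and Apoe were upregulated DEGs in KA input over AAV control out of 8 tested (background 2.52%). Pros1, which encodes the AXL ligand protein S, rose by 2.11 ± 0.23 (adjusted p = 0.00283, edgeR), the lipid carrier Apoe by 2.19 ± 0.44 and Csf1 by 1.01 ± 0.16. Il34, the neuronal CSF1R ligand, was at 11.8 ± 5.06 FPKM in AAV control, 13.1 ± 1.14 in PBS and 6.42 ± 1.25 in KA (SD, n = 3), and fell over PBS only (-1.03 ± 0.17, adjusted p = 0.00168, against -0.90 ± 0.35 and 0.23 over AAV control, edgeR). The log2 fold changes over AAV control of the inhibitory signals Cx3cl1 (-0.25), Cd200 (0.07) and Cd47 (-0.00) and of Gas6 (0.68) did not pass, and Tgfb1 rose from 0.100 to 0.543 FPKM in the wider fit (2.33).

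Among 9 signalling partners, the kinase gene Lyn was a DEG (1.87 ± 0.25, adjusted p = 0.00665, edgeR). In the wider fit (background 4.69%) the phosphatase genes Inpp5d (2.23) and Ptpn6 (2.57), the exchange factor Vav1 (2.67), the adaptor Hcls1 (2.23) and the receptor Tgfbr2 (2.09) also rose over AAV control, while Syk (0.64), Plcg2 (1.44) and Tgfbr1 (0.93) did not. Among the transcription regulators, Spi1 was a DEG (1.72 ± 0.32, adjusted p = 0.023, edgeR). Irf8 (2.99), Runx1 (2.31), Irf5 (1.98) and Ikzf1 (2.0) passed in the wider fit, and Mef2a (-0.29) and Cebpa (1.12) did not. Against PBS the wider fit called 4 ligands higher and Il34 lower, and 9 of 9 signalling partners higher (background 7.99% higher and 1.91% lower).

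Further genes outside the 40, listed as homeostatic or activated, also rose in KA input, where 2.52% of all genes tested were upregulated over AAV control. Of 10 other homeostatic genes 7 were tested and 7 were upregulated over AAV control, among them Crybb1 (1.47 ± 0.30), with a median of 1.68. Of 13 other activated genes 4 were tested and 4 were upregulated, among them the lysosomal protease Ctsd (3.62 ± 0.27) and the tetraspanin Cd9 (2.68 ± 0.20), with a median of 2.89. Ctsd and Cd9 had higher mean levels in IP than in input, as given at the end. In AAV control 2 of 4 tested genes of this list were higher in IP than in input (background 13.3%). Which cells gave their input level was not tested.

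In the IP libraries fewer members differed between KA and the controls. Of 11 members tested against AAV control, 4 were upregulated and 0 downregulated: Aif1 (1.66 ± 0.21, adjusted p = 0.00215), Ctss (2.21 ± 0.48, adjusted p = 0.0168), Fcer1g (1.74 ± 0.44, adjusted p = 0.0288) and Gpnmb (2.17 ± 0.27, adjusted p = 0.00207, edgeR). The background was 6.39%. Against PBS, Aif1, Ctss, Fcer1g, Gpnmb, Fcrls, Laptm5 and Cd68 were upregulated, 7 of 14 tested (background 8.08%). The wider fit, which some members again entered through their KA libraries alone, called 22 of 37 (background 7.88%) and 23 of 39 (background 11.0%). All KA libraries lay above all AAV control libraries for 27 members and above all PBS libraries for 21, which was so for 15.8% and 18.3% of all genes. Without KA IP #1 the count against AAV control fell to 2 (Ctss and Fcer1g were lost) and that against PBS to 4 (Fcrls, Laptm5 and Fcer1g were lost). Over all genes the upregulated counts went from 622 to 509 and from 796 to 776. Without AAV control IP #3, and within run 1, the count of members against AAV control was 7, and 875 and 884 of all genes were upregulated. Against AAV control, Ctss was also lost without KA IP #2 or either of AAV control IP #1 and #2 (adjusted p = 0.0533 to 0.0635), and Fcer1g without KA IP #3 or those controls (adjusted p = 0.0551 to 0.0865, edgeR). Against PBS, the calls of Fcer1g, Fcrls and Laptm5 each rested on at least 3 libraries, among them KA IP #1 and PBS IP #2, without any 1 of which they were lost. With the replicate number as a block Tyrobp was called as well (1.60, adjusted p = 0.00573, against 1.5 ± 0.57 and 0.104 without it, edgeR).

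The homeostatic genes went in different directions in IP. In the wider fit Olfml3 (2.82 ± 0.36, adjusted p = 0.0018), Fcrls (1.80 ± 0.34, adjusted p = 0.00901) and Cx3cr1 (1.63 ± 0.36, adjusted p = 0.0155) rose over AAV control (edgeR). These were 3 of 10 members (background 7.88%), and Olfml3 and Fcrls rose over PBS (background 11.0%). Olfml3 had 0.263, 0.204 and 0.380 FPKM in AAV control IP, 0.324, 0.384 and 0.588 in PBS and 2.30, 2.35 and 1.14 in KA, all KA samples above all controls. P2ry12 had 2.08, 1.48 and 2.64 FPKM in AAV control IP, 2.72, 1.79 and 2.51 in PBS and 1.45, 1.28 and 1.40 in KA. Every KA sample was below every control sample, a direction opposite to that in input, but it did not pass the DEG thresholds (-0.55 ± 0.30 over AAV control, adjusted p = 0.245, and -0.75 ± 0.25 over PBS, adjusted p = 0.035, edgeR). In the wider fit the median log2 fold change over AAV control in IP was 0.45 for the homeostatic and 2.41 for the activated members. It was -0.03 for all genes, and placing Clec7a at its bound leaves the activated median as it is. Some activated members entered that fit through their KA libraries. Above the FPKM filter the medians were -0.61 for the 2 homeostatic members tested and 0.37 for the 4 activated ones. Clec7a was at 0 counts in all 3 AAV control IP libraries and at 1.43, 0.873 and 0.968 FPKM in KA IP, at least 9.91-fold above a floor of 3 counts per library. Ccl3 had 0.141, 0 and 0.102 FPKM in AAV control IP, at most 1 count per library, and 5.04, 3.26 and 2.62 FPKM in KA IP.

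Within each homogenate, most members were lower in IP than in input. In KA 22 of 28 tested members were lower in IP (background 4.51%) and Gpnmb and Cd63 were higher (background 8.11%), and the wider fit called 34 of 40 lower (background 8.21%). In AAV control 5 of 10 were lower (background 13.1%) and Sall1, Lgals3, Axl and Cd63 were higher (background 13.3%), with 23 of 35 lower in the wider fit (background 13.4%). In PBS 8 of 13 were lower (background 12.3%) and Sall1, Axl and Cd63 were higher (background 14.8%), with 26 of 34 lower in the wider fit (background 13.3%). In AAV control the calls of Lgals3, Sall1, Fcgr3, Laptm5 and Tyrobp, and in PBS those of Sall1 and Siglech, were lost when 1 library was left out, as with Lgals3 without AAV control IP #3 (0.90, adjusted p = 0.0887, edgeR). Ratios of IP to input FPKM were below 1 in all 3 KA homogenates for 35 of the 39 members with 3 ratios, and for 51.5% of all genes. In AAV control this was so for 25 of 30 (43.1% of all genes) and in PBS for 25 of 33 (35.2%). Over the 30 members with 3 ratios in every group the median was 0.0925 in KA, 0.186 in AAV control and 0.269 in PBS.

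Lyz2 had the lowest mean ratio in KA (0.0244 ± 0.0065, SD, n = 3), from 310, 264 and 215 FPKM in input to 8.19, 7.81 and 3.67 FPKM in IP. Fcer1g (0.0263 ± 0.0059), Tyrobp (0.0298 ± 0.0027) and Ctss (0.0305 ± 0.014) were next. Markers of other cells moved between the IP libraries too. The 5 oligodendrocyte markers, Mobp among them, summed to 166 to 588 FPKM in AAV control IP, 146 to 330 in PBS IP and 698 to 1667 in KA IP. In KA IP 2 of 5 were upregulated DEGs over AAV control (background 6.39%) and 5 of 5 over PBS (background 8.08%). The 5 neuronal markers, led by Snap25 and Syt1, summed to 78.4 to 120, 84.8 to 146 and 153 to 227 FPKM, and the 5 astrocyte markers, led by Aldoc and Slc1a3, to 3144 to 7214, 4411 to 7934 and 1844 to 2176 FPKM. Their part in the member results was not tested.

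**Figure D4:**
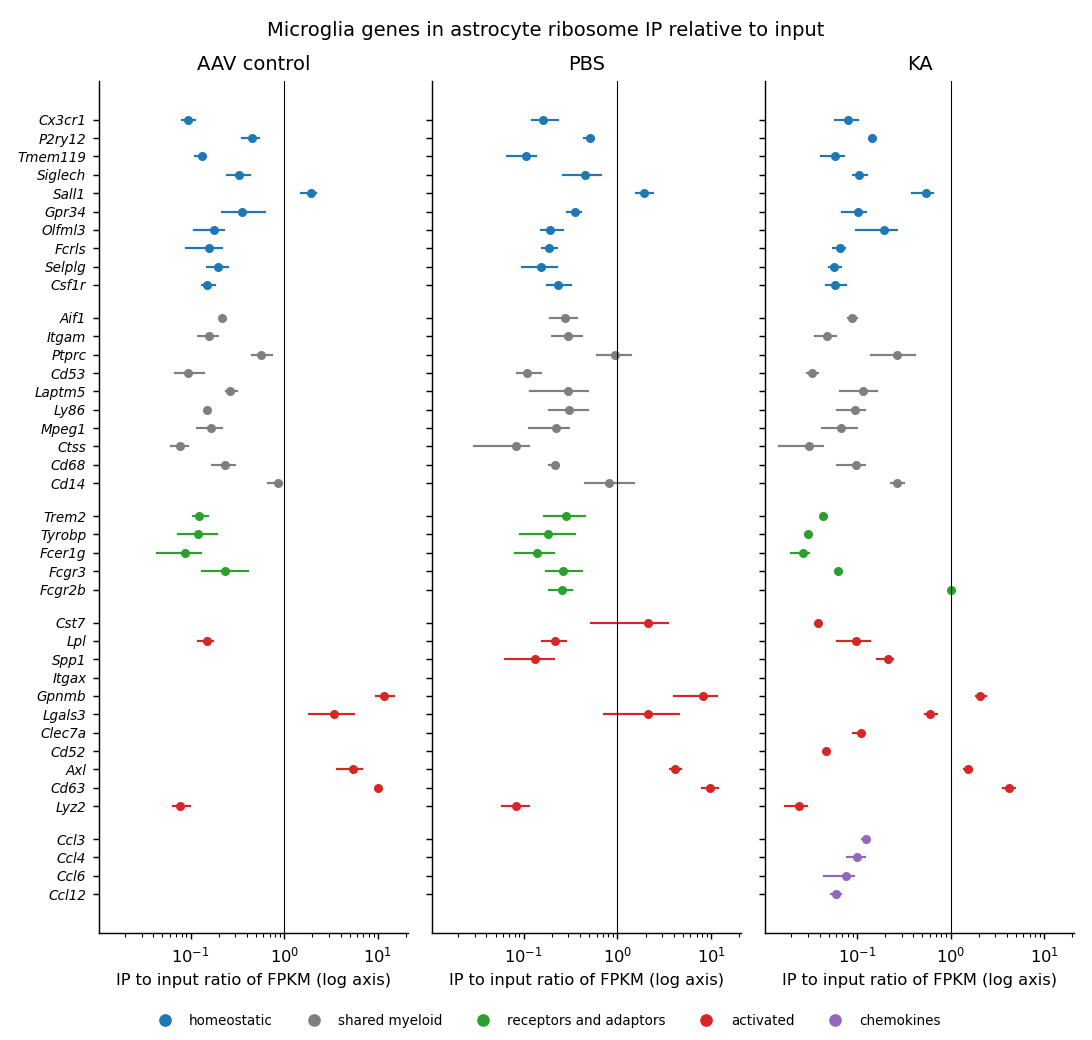
Ratio of IP to input FPKM within a homogenate (x axis, log scale) for each member (y axis, by role and colour) in the 3 groups. Points are means of 3 homogenates and bars run from the lowest to the highest; members with 3 or fewer IP counts in a library have no point. Most members lie left of the line at 1, with medians of 0.186 in AAV control, 0.264 in PBS and 0.0961 in KA over the 30, 33 and 39 members with a point, and Cd63, Axl and Gpnmb lie to its right in all 3 groups.

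A few members did not follow this pattern. Cd63 was the most abundant, with 837, 780 and 703 FPKM in AAV control IP, 583, 802 and 464 in PBS IP and 1348, 1270 and 1280 in KA IP, against 82.4, 73.3 and 73.7 FPKM, 61.1, 67.1 and 58.2 FPKM and 370, 319 and 261 FPKM in the inputs. Its ratio was 10.1 ± 0.55 in AAV control and 4.18 ± 0.66 in KA (SD, n = 3). Axl had a ratio of 5.37 ± 1.59 in AAV control, 4.15 ± 0.62 in PBS and 1.54 ± 0.15 in KA. Both were higher in IP in every homogenate, with a smaller ratio in KA than in the controls.

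Gpnmb had 2.0, 1.67 and 2.97 FPKM in AAV control IP, 1.59, 1.83 and 1.52 in PBS IP and 10.9, 9.29 and 9.27 in KA IP. The KA IP samples were above all controls and above their own inputs (log2 IP over input 1.27 ± 0.12, adjusted p = 0.000195, edgeR). Sall1 had 4.06, 4.73 and 2.28 FPKM in AAV control IP and 2.75, 2.39 and 1.54 in KA IP, and its ratio went from 1.94 ± 0.36 in AAV control to 0.543 ± 0.14 in KA. Lgals3 varied most among the control IP libraries, with 3.19, 3.55 and 14.4 FPKM in AAV control and 1.95, 1.27 and 9.79 in PBS, against 7.44, 5.63 and 7.37 in KA. In both control groups sample #3 was the high one, and the KA effect of Lgals3 in IP had no fixed sign (-0.06 ± 0.59 over AAV control, adjusted p = 0.956, and 1.14 with adjusted p = 0.00859 without AAV control #3, edgeR).

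Fcgr2b reached the same level in KA IP as in KA input. It had 0.0559, 0.108 and 0.377 FPKM in AAV control IP, 0.119, 0.151 and 0.132 in PBS IP and 7.28, 5.52 and 4.88 in KA IP. The KA IP samples matched their inputs, with ratios of 0.955 to 1.06, while in PBS the ratios were 0.185 to 0.325, from 8 to 11 IP counts. In AAV control they were 0.333 in #2 and 0.705 in #3, from 6 and 28 IP counts, and #1 had 3 IP counts and no ratio. In the wider fit it rose in IP by 5.0 ± 0.53 over AAV control (adjusted p = 0.000738) and by 5.61 ± 0.28 over PBS (adjusted p = 4.64e-08, edgeR).

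**Figure D5:**
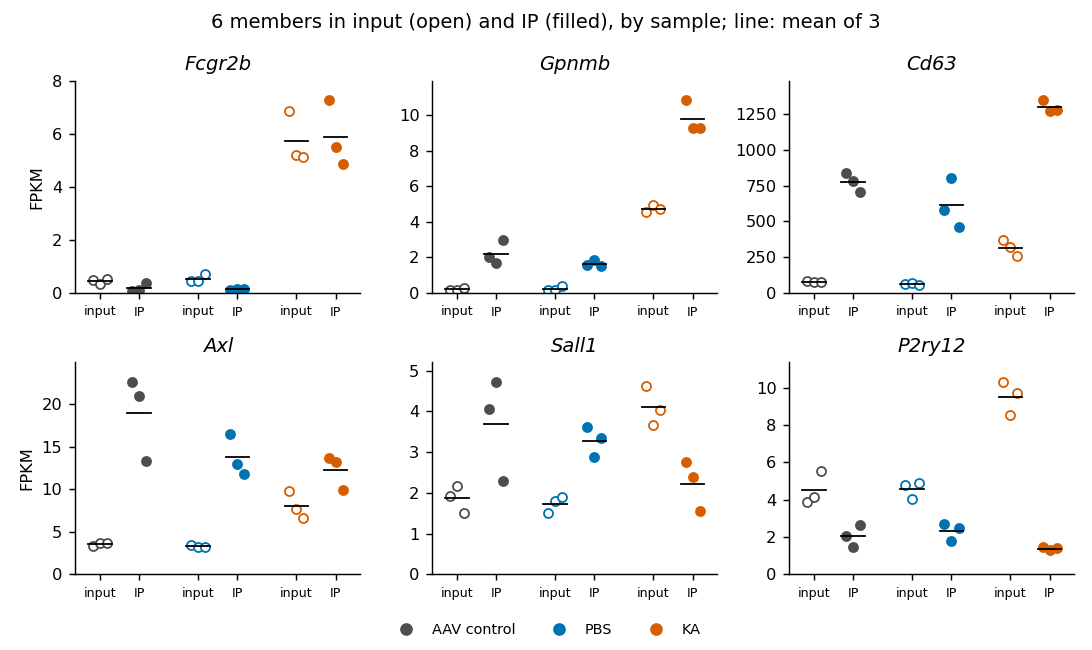
FPKM (y axis, linear and starting at 0) of 6 members in input (open) and IP (filled) of AAV control, PBS and KA (x axis), with a point per sample and a line at the mean of 3. Fcgr2b and Gpnmb rise in both kinds of library, Cd63 and Axl are higher in IP than in input in all groups, and P2ry12 is higher in KA input (8.53 to 10.3 FPKM) and lower in KA IP (1.28 to 1.45 FPKM) than in the controls.

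Whether KA acted alike on IP and input was tested by the interaction of both factors. With AAV control as the baseline, the KA effect was smaller in IP than in input for 7 of 10 members tested: P2ry12, Sall1, Aif1, Fcer1g, Lgals3, Axl and Cd63 (background 4.32%). The largest difference was that of Lgals3 (-2.60 ± 0.76, adjusted p = 0.0435) and the next that of Sall1 (-1.80 ± 0.33, adjusted p = 0.00419, edgeR). With the replicate number as a block Laptm5 (-1.17), Ctss (-1.30) and Tyrobp (-1.81) passed too, 10 in all. The count was 3, 2 and 4 without KA #1, #2 and #3 and 4 without AAV control #1, with P2ry12, Fcer1g and Lgals3 lost in all 4 cases and Cd63 in 3. Over all genes the count of smaller effects in IP fell from 397 to 266, 218, 293 and 239 in those fits. With PBS as the baseline it was smaller for 10 of 13 members (background 8.88%), the largest differences being Tyrobp (-2.43 ± 0.57, adjusted p = 0.00767) and Fcer1g (-2.38 ± 0.38, adjusted p = 0.000947, edgeR). The block, which here pairs IP and input of a homogenate, added Ctss (-1.40), Cd68 (-1.17) and Lgals3 (-1.55), 13 in all. The calls of Cd63 and Laptm5 were each lost without any 1 of 4 samples, and that of Tyrobp without PBS #3 (-1.66, adjusted p = 0.0741, edgeR).

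In the wider fit 9 of 39 members had a smaller KA effect in IP against AAV control (background 3.28%) and 23 against PBS (background 8.90%). Cst7 differed most, by -4.70 ± 0.63 on the log2 scale (adjusted p = 0.000937) and -5.32 ± 0.56 (adjusted p = 2.76e-05, edgeR). It had 150, 111 and 120 FPKM in KA input against 6.10, 4.28 and 4.44 FPKM in KA IP. Its AAV control libraries had 2 to 16 counts in input and 3 to 15 in IP. In PBS they had 4 to 6 and 5 to 18. Cst7 thus entered that fit through its KA libraries, and its size there rests on these low control counts. Fcgr2b was the only member called in that fit with a larger KA effect in IP, by 2.25 ± 0.33 against PBS (adjusted p = 0.000391) and 1.38 ± 0.60 against AAV control, where it did not pass (adjusted p = 0.189, edgeR).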

How the data were processed

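RNA was sequenced from 18 libraries, an IP and an input library from each of 9 homogenates. The authors aligned reads to mm10 with STAR and counted them per gene with featureCounts, as read from the paper's methods and the submitters' processing notes; versions and strand setting are not given in the sources used here. The deposited counts are whole numbers per gene and library and were not normalized. The authors also deposited FPKM values, which divide the counts by gene length and library total. The columns of counts served the tests, and FPKM the filter, the levels and the ratios.

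Libraries were scaled by TMM and tested with the quasi-likelihood test of edgeR 4.0.16 in R 4.3.3 on genes above 1 FPKM in all compared libraries, without a replicate block, and p-values were adjusted over all genes tested. IP against input and the interaction used the same test. DESeq2 1.42.0, limma voom (3.58.1), RLE scaling, no filter, a mean of at least 10 counts, a replicate block, a run covariate and leaving out each library were the alternatives, and run 1 alone and a sum without 3 members were added after seeing the data. The fits were tested on simulated counts. Standard errors are the log2 fold change divided by the square root of F.

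The named genes were all 40 members, all genes of the partner lists and, of every other list, the 2 with the highest mean in AAV control input, except for a few genes that are not reported here. Ms4a7, Ly6c2, Col1a1, Col1a2 and the low markers of other immune cells were named after their values were seen. Members and lists were chosen with earlier results of these data known. No pair of libraries was a duplicate. Same-numbered KA and AAV control libraries deviated together from their group means (r = 0.348 to 0.551 over genes, all 3 pairs in IP and in input), as did IP and input of the same homogenate (0.155 to 0.752). The numbers were therefore tried as a block, not in the main fits. Those of KA and AAV control also follow the runs, and libraries of unlike number were not compared. Pairing and run thus cannot be told apart there. PBS was not paired with the other groups. Nothing says that the pooled samples were otherwise independent, so p-values measure the spread between these samples. Standard errors come from the fits, which estimate the spread between libraries, and SDs are taken over the 3 samples of a group. Gene positions are those of GENCODE vM21 on GRCm38 and promoters those of RefSeq on GRCm38.p6, the same build.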

Additional observations from a re-analysis of the deposited data

Results flagged for a closer look

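The effect of KA differed between IP and input for these members by the interaction test of edgeR, and in each the IP value was the smaller. With AAV control as the baseline the log2 difference was -1.60 for P2ry12, -1.80 for Sall1, -1.26 for Aif1, -1.64 for Fcer1g, -2.60 for Lgals3, -1.71 for Axl and -1.22 for Cd63. With PBS as the baseline it was -1.81 for P2ry12, -2.07 for Siglech, -1.81 for Sall1, -1.45 for Fcrls, -1.61 for Aif1, -1.25 for Laptm5, -2.43 for Tyrobp, -2.38 for Fcer1g, -1.45 for Axl and -1.29 for Cd63. Both sets use the same KA libraries. P2ry12 had every KA input sample above, and every KA IP sample below, every control sample of its kind. Sall1 had the same pattern except that KA IP #1 and #2 overlapped AAV control IP #3.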

How the results depend on the processing

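Over all alternatives, 113 counts of members stayed within 1.5 times their value and 25 did not, 1998 log2 fold changes of members kept their direction and side of the thresholds, 57 newly passed, 102 no longer passed and 16 changed sign. Filters moved the counts most, by construction, as more members are tested: with no filter and with a mean of at least 10 counts, KA input over AAV control had 39 and 38 members, KA IP over AAV control 25 and 22, KA IP over PBS 24 and 23, members lower in IP 34 and 34 in KA, 27 and 23 in AAV control and 27 and 26 in PBS, and the interaction against PBS 28 and 24; that against AAV control had 18 with no filter. Leaving out 1 library gave 16 to 27 members over AAV control in input, 2 to 7 in IP, 4 to 7 over PBS in IP, 0 to 2 between PBS and AAV control in input, and 2 to 7 and 8 to 10 for the interaction against AAV control and PBS. Run 1 alone, added after seeing the data, gave 7 members for KA IP over AAV control. The replicate block kept every count within 1.5 times: 26 members in input and 5 in IP over AAV control, 28 and 6 over PBS (Fcrls missed at an adjusted p of 0.0575, edgeR), where the numbers do not pair samples.

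Relative to the controls, the quotient of activated to homeostatic sums in KA input was 1.99 over AAV control and 2.68 over PBS, and 6.45 and 7.17 without Lpl, Spp1, Axl and Cd63. The IP to input ratio of the 40 summed members was 0.508 in KA, 2.70 in AAV control and 2.17 in PBS. It became 1.27, 4.55 and 3.57 with TMM-scaled CPM, which are not divided by gene length. The KA ratio thus moved from below to above 1. Without Cd63, Axl and Sall1 the FPKM ratio was 0.0592, 0.175 and 0.203. Lpl changed sign near 0 in input: from -0.09 over AAV control to 0.031 in run 1 and 0.0096 without AAV control #3 (-0.16 to 0.0096 with 1 library left out), and from -0.03 over PBS to -0.13 to 0.13 with 1 library left out. Lgals3 in IP over AAV control went from -0.06 to 0.31 with voom, 0.045 with no filter, 0.0084 with a mean of at least 10 counts, 0.29 with the block, 0.28 with the run covariate, 1.02 in run 1, 0.09 without KA #2 and 1.14 without AAV control #3 (-0.44 to 1.14 with 1 library left out). Siglech in IP became -0.22 without AAV control #1, Axl in IP over PBS 0.0042 and the Ccl6 interaction against PBS 0.055 with no filter. The causes were not tested. Low control counts limit Itgax, Clec7a, Ccl3, Ccl4, Ccl12 and, in input, Cst7 most.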

Other observations

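A pair of activated genes outside the 40 members had higher mean levels in IP than in input. Ctsd, the lysosomal protease cathepsin D, had mean levels of 51.5 FPKM in AAV control input and 638 FPKM in KA input, and of 81.7 and 792 FPKM in IP, a log2 rise of 3.31 in IP over AAV control (adjusted p = 0.000348, edgeR). Cd9, a tetraspanin like Cd63, went from 47.2 to 304 FPKM in input and from 245 to 1147 FPKM in IP (2.25, adjusted p = 0.00194, edgeR). Over PBS the IP values were 3.42 for Ctsd and 2.68 for Cd9, from the same KA libraries.

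Apoe, a gene of astrocytes that activated microglia also express, had mean levels of 2335, 2600 and 10971 FPKM in the inputs of AAV control, PBS and KA and of 29737, 26494 and 24584 FPKM in IP. Among the ligands, Cx3cl1 (1.54), Pros1 (1.28) and Cd200 (1.22) were higher in KA IP than in AAV control IP on the log2 scale.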
